A study of Mus musculus with 7 samples.

Results

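The genes described here are 9 regulators of gastrulation, Cdx2, Eomes, T, Mixl1, Gsc, Evx1, Foxa2, Sox17 and Mesp1, read on every probe set that the platform annotation assigns to one of these symbols. No probe set carried the symbol T in the annotation used here, so T is not analysed here, and the other 8 genes were read by 11 of the 45101 probe sets, 8 of 18194 annotated genes. Affymetrix whole-genome mouse arrays were hybridised with RNA from D3 cells, an established mouse embryonic stem cell line. There were 2 wild type libraries and 5 libraries from D3 cells lacking calreticulin (encoded by Calr), which binds calcium and helps glycoproteins fold in the endoplasmic reticulum. No agent or other genotype is given for either group, each library is a pool of replicate cultures, and the labels leave unstated whether the knockout libraries come from 1 clone or from several. Because the RNA is bulk, fewer expressing cells and less RNA per cell cannot be told apart in any value below.

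The primitive streak is the structure through which epiblast cells leave to form mesoderm and endoderm. Nodal, Wnt and BMP signals induce it, and the T-box factors T and Eomes with the homeodomain factor Mixl1 act among their early targets. Mesp1 marks the nascent mesoderm that gives rise to the heart, Gsc and Foxa2 the anterior streak, Evx1 the posterior streak, and Sox17 with Foxa2 the definitive endoderm. Cdx2, a caudal homeodomain factor, specifies trophectoderm in the blastocyst and later patterns the posterior embryo. In undifferentiated stem cell cultures these genes are held at low levels, and cells that express them are usually rare.

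The libraries matched their labels at the targeted gene: the brightest Calr probe set read 12460 and 10839.5 in wild type libraries and 577 to 1064 in the knockout libraries. Whether that probe set lies in the deleted part of the gene was not settled by the tables used here. All 10 stem cell markers examined were bright enough to be tested, with Dppa5a, Zfp42 and Tdgf1 the brightest, and their summed signal spanned 83531 to 98323 in wild type and 80380.5 to 112543 in knockout libraries. Knockout libraries 2 and 3 stood apart. They correlated with each other at r = 0.985 and with the remaining libraries at 0.843 to 0.902 (Pearson's r over probe sets of one array pair, no measure of replicate error). Their log2 ratio of 3' to 5' Actb probe sets was 0.79 and 0.89, against 1.46 to 2.08 elsewhere. Pou5f1 and Nanog, pluripotency factor genes chosen after their values were seen, were lowest in these libraries. Pou5f1 read 4891 and 4687 there, against 8770 to 11726 in the remaining 5 libraries. Esrrb and Utf1 of the same list were also lowest in these libraries. Tdgf1 (14287 and 15929, against 10428 to 11866.5 elsewhere) and Fgf4 (6215 and 5809) were highest in them, and the remaining markers were neither in both. Differences that these libraries move are given with and without them.

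No member differed between the groups at an adjusted p under 0.05. Of the 11 probe sets, 8 passed the filter on dim signals (set at the 40th percentile of mean log2 values) and were tested with limma among 27022 probe sets. Of these 8, 0 were called, where 0.0296% of all tested probe sets were, and 2 had an unadjusted p under 0.05, both lower in the knockout group, against 2.61% of all tested probe sets lower at that level. The 5 knockout signals were all lower than either wild type signal at 4 of the 11 probe sets, 1 each of Cdx2, Eomes, Mixl1 and Sox17. Among all probe sets without a filter 5.46% did so. In the fit without a filter 10 of the 11 differences were negative, against 45.8% over all probe sets, and 0 of the 11 were called, where 0.0111% of all were. The genes were chosen with results of these libraries known, so these shares describe them and test nothing. For scale, a simulated log2 change of 2 was called at 56% of changed probe sets in this design and a change of 1 at 4%. The simulation drew independent noise and planted changes at many more probe sets than were called here. The rates in these data may therefore be lower.

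**Figure D1:**
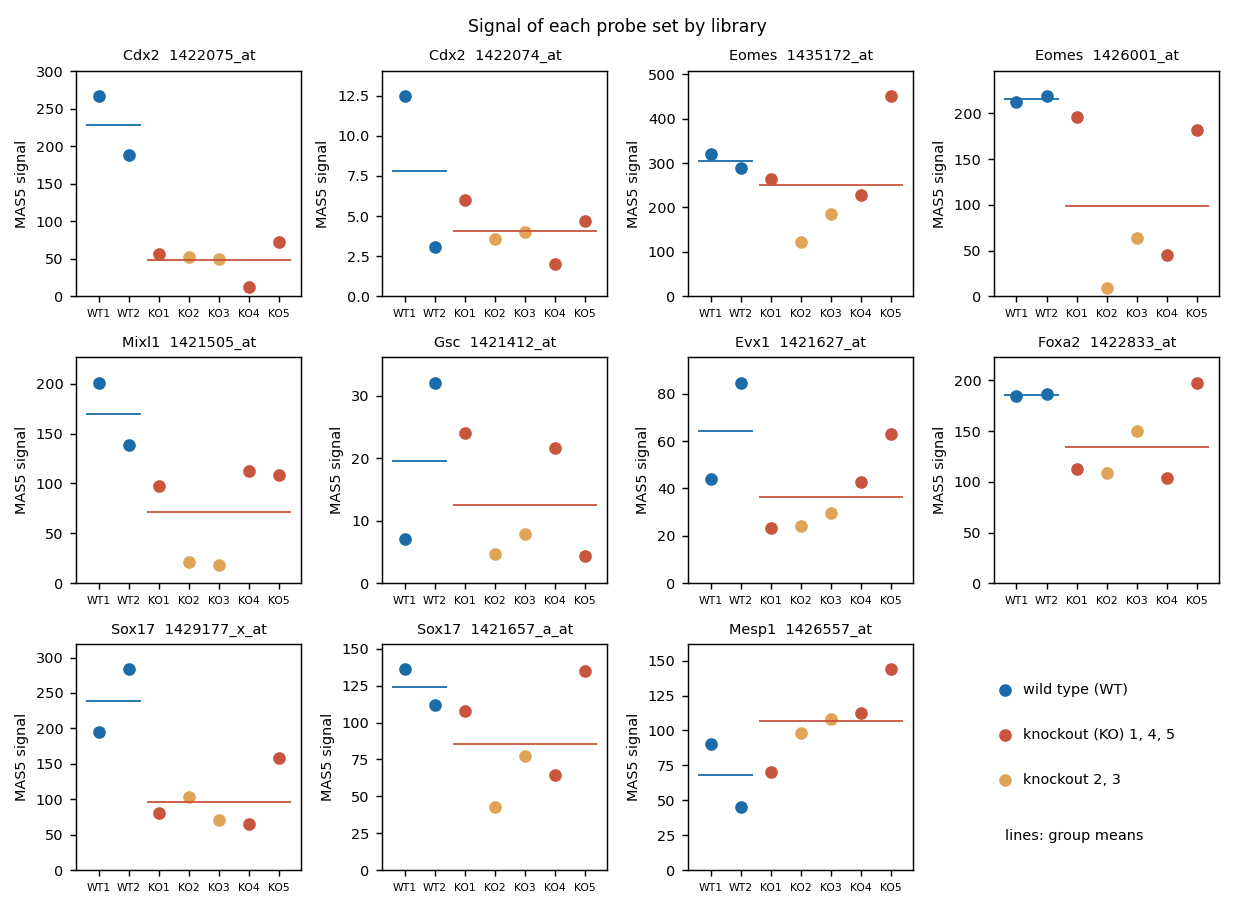
MAS5 signal (linear axis from 0) of each of the 11 probe sets in every library, with wild type (WT) in blue, knockout (KO) 1, 4 and 5 in red, knockout 2 and 3 in light orange, and horizontal lines at group means. Each panel has its own scale. At Cdx2 1422075_at the knockout signals of 12 to 72.4 all sit below the wild type signals of 189 and 267.

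Cdx2 had the largest difference among the tested member probe sets. Its brighter probe set, 1422075_at, gave signals of 267 and 189 in wild type libraries 1 and 2, and of 56.1, 52.7, 49.3, 12 and 72.4 in knockout libraries 1 to 5. The groups did not overlap, and the knockout mean of 48.5 ± 22.2 (SD, n = 5) was 21.3% of the wild type mean of 228 ± 55.7 (SD, n = 2). The difference on the log2(signal + 20.2) scale was -1.92 (SE 0.40, 95% interval -2.82 to -1.01), which ranked 39th by p among the 27022 probe sets but did not pass after adjustment (limma adjusted p = 0.575). Without knockout libraries 2 and 3 it was -2.01 (adjusted p = 0.681). Knockout signals of Cdx2 lay under 64.8, the signal that corresponds to the filter, in 4 of 5 libraries, so the probe set was tested because of its wild type level, and it dropped out of the test when either wild type library was omitted. The second Cdx2 probe set, 1422074_at, read 2 to 12.5 in every library, was under the filter and overlapped between the groups.

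Promoter windows from the RefSeq table follow for the genes of the largest lower and the only higher difference (Cdx2 and Mesp1), for Eomes, whose signal varied most among the knockout libraries, and for Evx1, which shares a match with Cdx2. Each is the 250 bases before the annotated start, 5′ to 3′ on the gene's own strand. Capitals mark matches, on either strand, to 7 motifs: the TATA box searched as TATAAA, the CCAAT box by its name, the octamer of POU factors such as Oct4 searched as ATGCAAAT, and the core bound by TCF/LEF factors searched as CTTTGA. The remaining motifs are known for members of the families studied here: GTAAACA for forkhead factors, TTTATG for caudal factors such as Cdx2, and TCACACC for T-box factors such as Eomes.
Cdx2 (GRCm38.p6 chr5:147307250-147307499, minus strand): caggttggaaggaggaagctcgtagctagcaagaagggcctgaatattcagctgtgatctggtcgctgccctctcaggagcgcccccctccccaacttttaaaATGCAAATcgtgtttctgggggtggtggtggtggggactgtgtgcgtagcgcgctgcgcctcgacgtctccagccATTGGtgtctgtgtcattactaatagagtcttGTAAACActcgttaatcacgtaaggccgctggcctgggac
Evx1 (GRCm38.p6 chr6:52313248-52313497, plus strand): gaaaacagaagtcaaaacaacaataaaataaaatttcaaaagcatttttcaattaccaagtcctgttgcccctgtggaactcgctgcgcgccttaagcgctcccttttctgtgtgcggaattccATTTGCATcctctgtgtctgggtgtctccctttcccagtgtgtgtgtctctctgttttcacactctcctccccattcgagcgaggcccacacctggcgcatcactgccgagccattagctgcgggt
Eomes (GRCm38.p6 chr9:118477939-118478188, plus strand): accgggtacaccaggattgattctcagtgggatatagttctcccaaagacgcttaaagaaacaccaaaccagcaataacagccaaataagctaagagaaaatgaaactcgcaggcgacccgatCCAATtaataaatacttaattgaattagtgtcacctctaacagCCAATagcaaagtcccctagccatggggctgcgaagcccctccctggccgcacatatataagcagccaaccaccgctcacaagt
Mesp1 (GRCm38.p6 chr7:79793591-79793840, minus strand): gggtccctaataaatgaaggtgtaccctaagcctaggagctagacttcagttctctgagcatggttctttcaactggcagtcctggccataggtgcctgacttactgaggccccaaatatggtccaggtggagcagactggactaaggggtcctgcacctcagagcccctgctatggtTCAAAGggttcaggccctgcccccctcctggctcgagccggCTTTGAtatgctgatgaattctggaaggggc
The Cdx2 window holds the octamer, which ends 139 bases before the start, a forkhead match ending 33 bases before it and a CCAAT match on the reverse strand. Evx1 holds the octamer on the reverse strand, ending 118 bases before its start. Eomes holds CCAAT at 2 places and Mesp1 holds CTTTGA at 2 places, once on each strand. Of 32851 RefSeq promoter windows of this length, the octamer was in 1.60%, the forkhead motif in 3.17%, the TCF/LEF core in 13.8%, the CCAAT box in 33.8%, the TATA box in 12.4%, the caudal motif in 10.8% and the T-box motif in 3.33%. Among the 6 of 8 members found in the table, 3 held a CCAAT box, 2 an octamer, 2 a TATA box, 1 the TCF/LEF core and 1 the forkhead motif. The caudal and the T-box motif were in 0, and no matches overlapped. These counts are of genes, which have 8 windows, whereas the shares are of windows. The motifs were chosen with the promoters in view and Evx1 is shown for its match, so the counts test nothing. A match describes the letters in these windows and is no measure of binding.

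Among the early streak factors, Mixl1 was lower in every knockout library, and in 2 of them its signal was close to 20.2, the 20th percentile of all signals. Mixl1, a paired-type homeodomain factor of the streak, had signals of 201 and 139 in wild type libraries and of 97.1, 21, 17.8, 112 and 108.5 in knockout libraries 1 to 5. Knockout libraries 2 and 3 were far below the rest, and the remaining 3 lay within a narrow band of 106 ± 7.95 (SD, n = 3). The difference was -1.24 (SE 0.56, 95% interval -2.49 to 0.0039, limma adjusted p = 0.575), and without knockout libraries 2 and 3 it was -0.57 (adjusted p = 0.820). Knockout signals lay under 64.8, the signal of the filter, in 2 of 5 libraries. The mean log2 value of the knockout group was under the filter too, so Mixl1 was tested because of its wild type level. Its spread among the knockout libraries, an SD of 0.92 on the log2 scale, was larger than that of 93.8% of tested probe sets within 0.5 log2 units of its mean signal.

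Eomes, a T-box factor needed for mesoderm migration and definitive endoderm and also expressed in trophoblast, gave different pictures with its 2 probe sets. The brighter, 1435172_at, read 320 and 289 in wild type libraries and 263, 122, 185, 227 and 452 in knockout libraries 1 to 5. Knockout libraries 1 to 4 were lower than the wild type pair and library 5 was higher, and the difference of -0.38 (SE 0.41, 95% interval -1.30 to 0.54) did not pass (limma adjusted p = 0.732). Without knockout libraries 2 and 3 it was -0.02 (adjusted p = 0.993). The other, 1426001_at, read 212 and 219 in wild type libraries and 196, 9.3, 63.6, 45.3 and 181 in knockout libraries 1 to 5. All 5 lay below the wild type pair, but libraries 1 and 5 stayed close to it and libraries 2, 3 and 4 did not. In those 3 libraries this probe set was under 64.8, the signal of the filter. The difference at 1426001_at of -1.34 (SE 0.69, limma adjusted p = 0.575) was -0.73 without knockout libraries 2 and 3 (adjusted p = 0.823). The SD of 1.20 among its knockout libraries exceeded that of 97.9% of tested probe sets of like signal. Both probe sets put knockout library 2 lowest, and they differ at library 5, which is high with the first and just under wild type with the second.

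**Figure D2:**
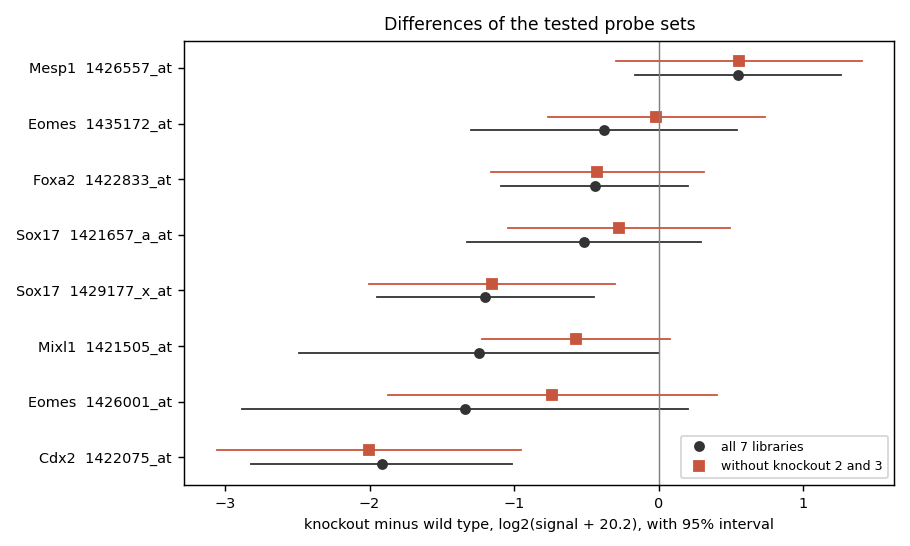
Difference (knockout minus wild type, log2(signal + 20.2), horizontal axis) of the 8 tested probe sets with 95% intervals from limma, over all 7 libraries (black circles) and without knockout 2 and 3 (red squares). Only the intervals of Cdx2 1422075_at and Sox17 1429177_x_at lie wholly below 0 in both fits, and neither passed after adjustment.

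The endoderm factor Sox17, an HMG-box protein, was lower in all knockout libraries with 1 of its 2 probe sets. With 1429177_x_at the signals were 195 and 283 in wild type libraries and 80, 103, 70.7, 65.2 and 158 in knockout libraries 1 to 5. The groups did not overlap, with knockout library 5 nearest to wild type. The knockout mean was 39.9% of the wild type mean, and the difference of -1.20 (SE 0.34, 95% interval -1.95 to -0.45) did not pass (limma adjusted p = 0.575). Without knockout libraries 2 and 3 it was close to that, at -1.15 (adjusted p = 0.820). The suffix _x_ marks probes that can also bind other transcripts. The second probe set, 1421657_a_at, read 136 and 112 in wild type libraries and 108, 42.5, 77.4, 64.3 and 135 in knockout libraries 1 to 5, so library 5 fell between the wild type libraries and the difference was smaller, at -0.51 (SE 0.36, adjusted p = 0.614). Leaving out knockout libraries 2 and 3 made it -0.27 (adjusted p = 0.883).

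Foxa2, a forkhead factor of node, axial mesendoderm and endoderm, read 184 and 186 in wild type libraries and 113, 109, 150, 103 and 198 in knockout libraries 1 to 5. The wild type pair was almost identical, and knockout libraries 1 to 4 lay below it and library 5 above. The difference was -0.44 (SE 0.29, 95% interval -1.09 to 0.21, limma adjusted p = 0.597). Without knockout libraries 2 and 3 it was -0.42 (adjusted p = 0.832).

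Mesp1, a basic helix-loop-helix factor of early mesoderm, was the only member with a positive difference. Its signals were 90.5 and 45.3 in wild type libraries and 70.3, 98, 108, 113 and 144 in knockout libraries 1 to 5. Knockout library 1 lay between the wild type libraries and the other 4 above both. The difference of 0.55 (SE 0.32, 95% interval -0.16 to 1.26) did not pass (limma adjusted p = 0.581). It was 0.93 without wild type library 1 and 0.17 without wild type library 2, so its size rests on which wild type library is used. Without knockout libraries 2 and 3 it was 0.56.

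Evx1 and Gsc were under the filter and are given as values. Evx1, a homeodomain factor of the posterior streak, read 43.9 and 84.7 in wild type libraries and 23.4, 24.2, 29.7, 42.6 and 63 in knockout libraries 1 to 5. Of these, 4 were below both wild type libraries and library 5 was between them. Gsc, the goosecoid homeodomain repressor of the anterior streak, read 7.1 and 32.1 in wild type libraries and 4.4 to 24.1 in knockout libraries, and the groups overlapped. Whether such dim signals exceed background was not tested here.

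**Figure D3:**
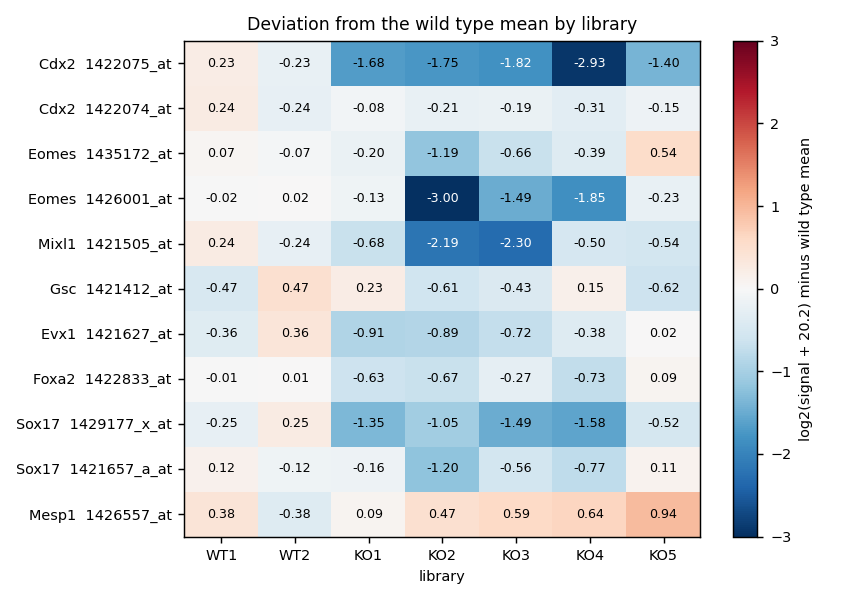
Deviation of each library from the wild type mean on the log2(signal + 20.2) scale (colour and printed value) for the 11 probe sets (rows) and the 7 libraries (columns). Mixl1 is lowest in knockout 2 and 3 (-2.19 and -2.30), Cdx2 1422075_at in knockout 4 (-2.93), and Mesp1 is above 0 in all 5 knockout libraries.

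The members did not share 1 pattern over the knockout libraries. Cdx2 1422075_at deviated from the wild type mean by -1.40 to -1.82 in knockout libraries 1, 2, 3 and 5 and by -2.93 in library 4. Mixl1 deviated by -2.19 and -2.30 in libraries 2 and 3 and by -0.50 to -0.68 in the others. Knockout library 5 had positive deviations at Eomes 1435172_at (0.54), Sox17 1421657_a_at (0.11), Foxa2 (0.09) and Evx1 (0.02), where the mean over the group was negative. In that same library Cdx2 was still at -1.40 and Sox17 1429177_x_at at -0.52.

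Genes with the most similar pattern were sought over the 7 libraries among the 13120 tested genes, with Pearson's r as a description and no test, since the libraries are shared and knockout libraries 2 and 3 weigh on it. Closest to Cdx2 were Srp72 (r = 0.962, and 0.963 over the 5 libraries without knockout 2 and 3), Taf1c (0.955 and 0.976) and Spry4 (0.954 and 0.951). Spry4 read 2100 and 1931 in wild type libraries and 1439, 1024, 1004, 595 and 1251 in knockout libraries 1 to 5, so it too was lowest in knockout library 4. Its difference was -0.97 (limma adjusted p = 0.589). The genes of this paragraph were picked for their likeness, so a direction or lowest library shared with a member follows from that choice. Closest to Mixl1 were Rfxap, Cops4 and Arpc5l, each at r = 0.998 and at 0.988 to 0.995 over the 5 libraries. Closest to Sox17 1429177_x_at were Tcap (0.964 and 0.994), Sox21 (0.954 and 0.990) and Sox7 (0.946 and 0.998). Sox7 read 152 and 243 in wild type libraries and 60.3, 50.6, 71.3, 42.7 and 122.5 in knockout libraries 1 to 5, a difference of -1.31 (SE 0.35, adjusted p = 0.589). For Eomes 1435172_at they were Fcor, Nckipsd and Efnb2 (0.961 to 0.970, and 0.890 to 0.926 over the 5 libraries), for Foxa2 Asb18, Mc5r and Ins2 (0.926 to 0.946), and for Mesp1 Ppp6r2, Gda and Hamp (0.959 to 0.963).

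**Figure D4:**
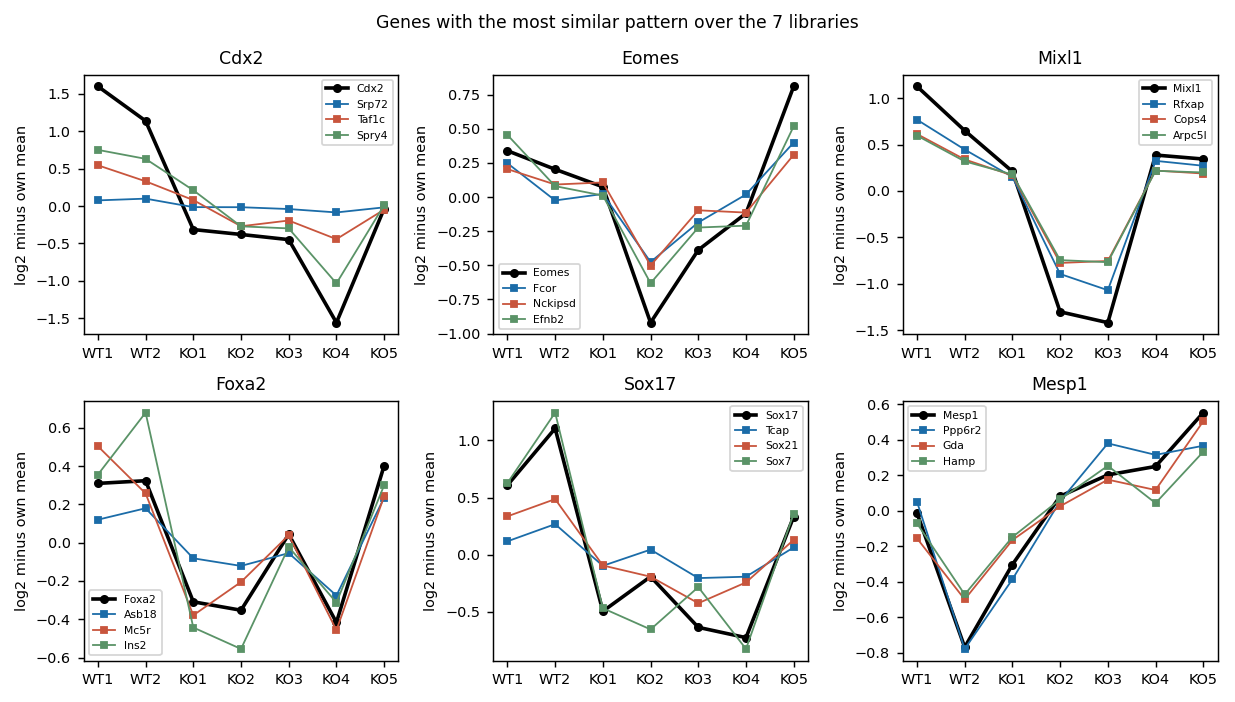
Log2(signal + 20.2) of each tested member (black, brightest probe set) and its 3 most similar genes (colours), each minus its own mean over the 7 libraries (horizontal axis). Rfxap, Cops4 and Arpc5l follow Mixl1 with r = 0.998, and Sox7 follows Sox17 with r = 0.946.

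The wider pathway was read on 7 lists with 95 genes, of which 90 were on the array and 72 were tested with 1 probe set per gene. Of the 72, 0 were called by limma, against 0.0152% of all 13120 tested genes, while 5 were higher and 3 lower at an unadjusted p under 0.05 (4.66% and 3.40% of all genes). Negative differences were found for 30 of 72, against 50.3% of all genes. Of 11 tested ligands and processing enzymes that induce the streak, 10 had a positive difference and the list median was 0.22, or 0.04 without knockout libraries 2 and 3. Nodal, the TGF-beta ligand of streak induction, read 3335 and 3821 in wild type libraries, 8742 and 8811 in knockout libraries 2 and 3, and 2980 to 3755 in the other 3. Its difference was 0.46, or -0.09 without knockout libraries 2 and 3. Its co-receptor gene Tdgf1 differed by 0.20 (0.02 without those libraries) and Fgf4 by 0.67 (0.59 without them), with adjusted p = 0.742 and 0.589 over all libraries. Of 6 tested inhibitors 5 were positive, with a median of 0.37. Their brightest members, the Nodal antagonists Lefty1 (0.48) and Lefty2 (0.52) and the Wnt antagonist Sfrp1 (0.46), all had their 2 highest signals in knockout libraries 2 and 3, and without those libraries the median was -0.26. All 3 then turned negative, to -0.36 for Lefty1, -0.11 for Lefty2 and -0.51 for Sfrp1.

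Of 19 tested receptors and transducers, 11 were positive and 8 negative, with a median of 0.38, or 0.14 without knockout libraries 2 and 3. Its brightest members were Ctnnb1, which encodes beta-catenin (-0.24), the common Smad gene Smad4 (-0.15) and the Wnt receptor gene Fzd7 (0.88). In the fit without knockout libraries 2 and 3 these were -0.12 for Ctnnb1, 0.14 for Smad4 and 0.26 for Fzd7, so Smad4 turned sign and Fzd7 shrank. Lef1 and Axin2, chosen after their values were seen, are a Wnt-responsive transcription factor gene and a negative feedback target of Wnt signalling. Lef1 read 553 and 380 in wild type libraries and 245, 70.1, 62.9, 233 and 235 in knockout libraries 1 to 5, a difference of -1.52 (limma adjusted p = 0.589). Axin2 read 638 and 846 in wild type libraries and 475.5, 284, 179, 398 and 558 in knockout libraries 1 to 5, a difference of -1.02 (adjusted p = 0.589). Both were lower in all 5 knockout libraries, where 7.44% of tested genes were, and lowest in libraries 2 and 3. They were picked for these values, so that share is no test of them. In the list of Lef1, Acvr2a (1.16) and Bmpr1a (0.97) also had an unadjusted limma p under 0.05 and were higher. The Wnt pathway factor genes Tcf7l1 and Tcf7l2 of that list were at -0.09 and -0.02. Dkk1, of the inhibitor list like Axin2 and likewise chosen afterwards, was highest in libraries 2 and 3 (212 and 214). Its difference was 0.20, or -0.17 without those libraries. Without knockout libraries 2 and 3 the differences were -0.89 for Lef1 and -0.62 for Axin2.

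Of 16 tested genes for other streak, mesoderm and node factors, 13 were negative and the median was -0.37, or -0.33 without knockout libraries 2 and 3. Otx2, an anterior homeodomain factor, was at -0.72, Hhex at -0.09 and Tbx3 at 0.22. Otx2 read 382 and 416 in knockout libraries 2 and 3 and 1351 to 1469 in the other 3 knockout libraries, and without the former it was at -0.01, Hhex at 0.16 and Tbx3 at 0.50. Caudal and posterior genes were mostly under the filter: 3 of 9 were tested, Hoxa9 (0.31), Evx2 (-0.19) and the retinoic acid-degrading enzyme gene Cyp26a1 (-0.50). Leaving out knockout libraries 2 and 3 put them at 0.28, -0.35 and -0.29. The Cdx2 relatives Cdx1 and Cdx4 were untested, with signals of 4.3 to 8.6 and 20.2 to 54.5. Of 8 tested endoderm genes, 5 were positive, with a median of 0.39 that became -0.02 without knockout libraries 2 and 3. Epcam (0.44), Cldn6 (0.57) and Kit (0.45) were the brightest, and none of these genes was called. When those libraries were left out, Epcam was at 0.31 and Cldn6 at 0.14, and Kit turned to -0.18.

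Of 12 tested trophectoderm genes, 8 were positive in contrast to Cdx2, and the median was 0.15. Without knockout libraries 2 and 3 it was 0.31 with 11 of 12 positive, where 51.3% of all genes in that fit were negative. Tead4 (-0.14) and Gata3 (1.90) passed the filter only in that fit and are not among the 12. Krt7, an epithelial keratin gene, read 152 and 126 in wild type libraries and 226, 314, 323, 355 and 317 in knockout libraries 1 to 5, a difference of 1.03 (SE 0.25, limma adjusted p = 0.589). Tfap2c, an AP-2 factor active in trophoblast and germ cells, read 1143 and 1104 in wild type libraries and 1459, 2183, 1952, 2115 and 1967 in knockout libraries 1 to 5, a difference of 0.76 (adjusted p = 0.589). Both were higher in all 5 knockout libraries, where 6.41% of tested genes were. They are named as the brightest trophoblast markers and are also the 2 genes of this list with an unadjusted p under 0.05, so that share is no test of them. The brightest members of the list were Yap1 (-0.46), Krt18 (0.30) and Esrrb (0.04), which without knockout libraries 2 and 3 were at -0.10, 0.25 and 0.21. The defining trophoblast gene Elf5 was under the filter at 9 to 61.3, and Gata3 ranged from 3.2 to 366 with overlap of the groups.

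**Figure D5:**
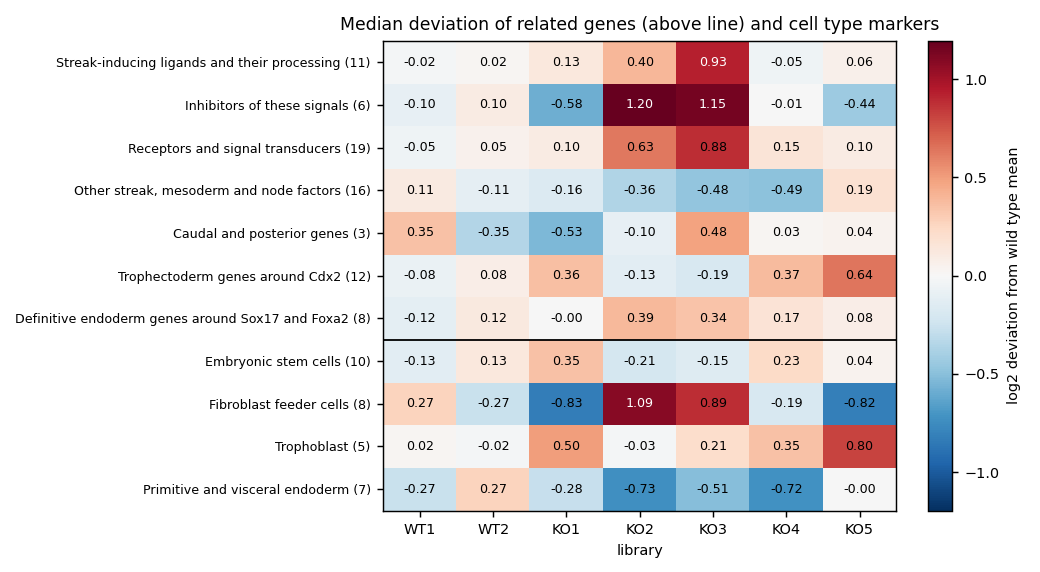
Median log2(signal + 20.2) deviation from the wild type mean in each library (columns) for 7 lists of related genes (above the line) and 4 lists of cell type markers (below), with the number of tested genes in brackets. Inhibitors stand at 1.20 and 1.15 and fibroblast markers at 1.09 and 0.89 in knockout 2 and 3.

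Of the markers of other cell types, the summed fibroblast signal was highest in knockout libraries 2 and 3. Fibroblast markers, of which 9 were on the array and 8 tested, had a summed signal of 1233 to 1501 in wild type libraries, of 3876 and 3704 in knockout libraries 2 and 3, and of 810 to 1197 in the other 3. Of the brightest, Col1a2 read 1519 and 1443 and Col1a1 355 and 305 in knockout libraries 2 and 3, above all other libraries, whereas Thy1 read 310 and 292 there and 405 and 403 in wild type library 1 and knockout library 4. Of the remaining markers, Dcn read 552 and 555 in knockout libraries 2 and 3, against 13.4 to 55.6 elsewhere. Postn (389 and 392), Col3a1 (512 and 443) and Pdgfrb (132 and 135.5) were also highest in those libraries, and Twist2 was lowest (60.5 and 66.6). Lum stayed at 33.2 to 72.4, and no marker was at 0. Mixl1 was lowest in the same 2 libraries, and the part of fibroblast RNA or RNA quality in its value was not tested. The brighter Cdx2 probe set lay below wild type with or without those libraries. The part of fibroblast RNA or RNA quality in the Cdx2 value was not tested either. Of 7 tested markers of primitive and visceral endoderm, which also express Sox17 and Foxa2, 5 were negative, with a median of -0.49 (-0.33 without knockout libraries 2 and 3) and a summed signal over 10 genes of 1622 to 2323 in wild type and 1120 to 1947 in knockout libraries. Dab2 (-0.85), Gata6 (-0.53) and Amn (-0.02) were the brightest, at -0.45, -0.33 and -0.29 without those libraries, and Afp and Ttr read 1.1 to 31.5 in all libraries. The part of such cells in the Sox17 and Foxa2 values was not tested. Trophoblast markers summed to 1960 to 2153 in wild type and 2652 to 3683 in knockout libraries over 8 genes, led by Tfap2c, Krt7 and Hand1 (-0.64). Tfap2c was the largest part of every sum, at 1143 and 1104 in wild type and 1459 to 2183 in knockout libraries. The groups overlapped at Hand1, Plac1, Ascl2, Gata3, Elf5 and Tpbpa, so the separation of the sums was not shared by most of the list. The part of trophoblast cells in the Cdx2 and Eomes values was not tested.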

How the data were processed

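Each library's deposited table holds an intensity for every probe set on a linear scale, computed by MAS5 according to the submitters' processing notes. The trimmed mean without the lowest and highest 2% was 500.0 on every array. Signals were converted to log2(signal + 20.2), the 20th percentile of all values. Probe sets above the 40th percentile of mean log2 value were tested, 27022 in all, or 13120 genes by their brightest probe set. The group comparison used limma 3.58.1 under R 4.3.3 (trended eBayes, two-sided, Benjamini-Hochberg over all tested features, threshold 0.05), tested first on simulated data. P-values measure the spread between these libraries, and the number of arrays limits precision. Members and lists were chosen with earlier results of these data known, and motifs with the promoters in view. Named by rule were the members, Calr, the 3 brightest genes of each list, and the 3 genes most like each tested member; clone and locus identifiers were left out. Symbols follow the platform annotation, updated through RefSeq (GRCm38.p6), which also gave the promoters. Alternatives covered normalization, pseudocount, filter, variance model, array weights, a replicate block, a batch term and omitted libraries. Figures used matplotlib 3.10.9.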

Additional observations from a re-analysis of the deposited data

Results flagged for a closer look

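In 4 of 64 groups of 5 knockout libraries, 1 library stood apart by Dixon's criterion, which chance meets in about 1 of 20 groups. Cdx2 1422075_at in knockout library 4 read 12, against 49.3 to 72.4 in the other 4 (gap over range 0.728). The Calr probe set 1456170_x_at was also lowest in knockout library 4, at 489 against 813 to 978 (0.731). The log2 ratio of 3' to 5' Gapdh probe sets was highest in that library, at 1.32 against -0.31 to 0.77 elsewhere. Its Actb ratio was 1.94, under the 2.08 of wild type library 2. The part of RNA quality in these 2 low values was not tested. Krt7 in knockout library 1 read 226 against 314 to 355 (0.726), and Tfap2c in the same library 1459 against 1952 to 2183 (0.723). In both genes that library lay between the wild type libraries and the other knockout libraries.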

How the results depend on the processing

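Of the member probe sets, 0 were called under any of the 18 alternatives, and none changed direction in those where it was tested. Cdx2 1422075_at ranged from -2.18 (pseudocount at the 10th percentile) to -1.36 (at the 40th) over 15 of them, with adjusted p from 0.256 to 0.846. The stricter filter (60th percentile) and leaving out either wild type library removed it from the test. Eomes 1435172_at ranged from -0.69 to -0.02, Mixl1 from -1.48 to -0.57, Sox17 1429177_x_at from -1.45 to -0.92 and Mesp1 from 0.17 to 0.93. Calr ranged from -3.78 to -3.52 with 1 library left out, and lost its call without wild type replicate 1 (-3.58, adjusted p = 0.253) or 2 (-3.78, 0.129). Probe sets called were 8, against 5 without a filter, 4 with the filter at the 60th percentile, 5 without knockout libraries 2 and 3, and 0 to 7 with 1 library left out. Genes called were 2, against 1 without a filter, 1 at the 60th percentile, 1 without knockout libraries 2 and 3, 7 with these as a batch term, and 0 to 2 with 1 library left out. With the replicate number as a block, 15 probe sets and 42 genes were called, no member among them, and Cdx2 stood at -1.72. The groups share only numbers 1 and 2, and nothing pairs these samples (r = 0.05 between their differences). Median centring moved the median of all differences from 0.07 to -0.05, so positive differences shrink and negative ones grow by that shift. Signals near the low end of the array limit Gsc, Evx1 and Cdx2 1422074_at.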

Other observations

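Several genes of posterior streak and Wnt or FGF signalling, chosen after their values were seen, were highest in wild type library 1 and were under the filter or overlapped between the groups. Sp5, a Wnt target transcription factor gene, read 460 in that library, 80.5 in wild type library 2 and 9.4 to 49.6 in the knockout libraries. It was under the filter over all libraries but passed it without knockout libraries 2 and 3, at -2.33 (limma adjusted p = 0.730). Fgf8, an FGF ligand gene of the streak, read 73.7 in wild type library 1 and 3.2 to 8.5 in the other 6 libraries. Wnt8a read 124 and 73.7 in wild type libraries and 8.8 to 68.4 in knockout libraries. Nkx1-2, a homeodomain gene of the posterior embryo, read 120 in wild type library 1, 19.7 in wild type library 2 and 35.1 to 89 in knockout libraries. Fgf5, a gene of the primed epiblast, read 253 in wild type library 1, 82.1 in wild type library 2 and 10 to 146 in knockout libraries (difference -1.23, or -0.54 without knockout libraries 2 and 3). Wnt3 was also highest in wild type library 1, at 75, with 41.7 in wild type library 2 and 5.1 to 39.1 in knockout libraries. Other genes of these lists ran the other way. Wnt3a (25) and Fgf4 (2366) were lowest in wild type library 1, and Axin2 was higher in wild type library 2. The members showed no single order of the wild type libraries. Cdx2 1422075_at, Cdx2 1422074_at, Mixl1, Mesp1, Eomes 1435172_at and Sox17 1421657_a_at were higher in library 1, and Sox17 1429177_x_at, Eomes 1426001_at, Foxa2, Gsc and Evx1 were higher in library 2.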
